A study of Mus musculus with 24 samples.

Results

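The immediate early genes described here are the 10 genes Fos, Fosb, Jun, Junb, Egr1, Egr2, Egr3, Atf3, Ier2 and Nr4a1, taken by name from the 24062 gene symbols of the deposited count tables, in which all 10 had a row. Polyadenylated RNA was sequenced from mouse quadriceps, the large muscle of the front of the thigh, in 24 libraries of 9 groups. The mutant, delEx44, lacks exon 44 of Dmd, the gene of dystrophin, which ties the muscle fibre's cytoskeleton to its membrane and whose loss causes Duchenne muscular dystrophy. The corrected mice are delEx44 mice edited by CRISPR-Cas9, with AAV9 vectors for the guide RNA and for SpCas9 given intraperitoneally on postnatal day 4. Wild-type (WT) mice are the controls, and all groups are on the C57BL/6 background.

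At 4 weeks of age, sedentary corrected, delEx44 and WT mice gave 3 libraries each. A second set, 8 weeks old, had been run downhill for 1 month on a 15 degree decline at 12 m/min every other day, and gave 2 libraries each of corrected, delEx44 and WT muscle. The oldest set, of sedentary mice, was 18 months old, with 3 libraries each of corrected, delEx44 and WT muscle. The run mice were 4 weeks older than the 4-week mice, so running and growth cannot be told apart. The corrected mice of 4 and 8 weeks had received 8e13 vector genomes per kg of each vector with a self-complementary guide vector, whereas those of 18 months had received 2.5e14 of a single-stranded guide vector and 5e13 of the Cas9 vector. The 18-month libraries came in a table of their own that was scaled separately, so levels were not compared between the tables. The labels do not say that libraries of a group came from separate animals, and p-values measure the spread between these libraries, which may be partly technical. All muscle is bulk tissue, in which fewer cells of a type and less RNA per cell cannot be told apart.

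Immediate early genes are transcribed within minutes of a stimulus, without the need for new protein. Growth factors, calcium entry, stretch and injury reach them through MAP kinases and through the factors SRF, with its Elk partners, and CREB, which are already present in the resting cell. Most members encode short-lived transcription factors that carry the signal to later genes. In skeletal muscle they are known for their response to contraction and damage, and Egr3 is also known for its role in the intrafusal fibres of the muscle spindle. Fos and Fosb encode Fos proteins, which bind DNA as the AP-1 dimer with Jun or Junb. Egr1, Egr2 and Egr3 encode zinc finger factors of GC-rich sites, held back by the Nab corepressors. Atf3 is a stress-induced factor of the ATF/CREB family, Nr4a1 is an orphan nuclear receptor that responds to exercise in muscle, and Ier2 encodes a small nuclear protein.

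In the mm10 build (GENCODE vM21 annotation), Fos lies at chr12:85473890-85477273 and Fosb at chr7:19302696-19310051. Jun lies at chr4:95049034-95052222 and Junb at chr8:84974484-84978718. Egr2 lies at chr10:67535475-67542188 and Egr3 at chr14:70077203-70082614. Atf3 lies at chr1:191170296-191218039, Ier2 at chr8:84661331-84662852 and Nr4a1 at chr15:101254269-101274795. Each count is a number of reads per gene symbol, and the annotation it was counted on is not given. No source used here gives the strand setting of the counting, so reads of Jun and of its antisense neighbour Junos, and those of Junb and of Prdx2, which overlaps it on the opposite strand, may be mixed.

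Promoter sequence is shown for 4 members, because immediate early genes are known to be switched on through SRF and CREB sites and because the members differ in the 18-month data below. Each window runs from 250 bases before to 50 bases after a RefSeq transcript start (GRCm38.p6), 5′ to 3′ on the gene's strand. Capitals mark every match, on either strand, to the CREB core TGACG, the full CREB site TGACGTCA, the AP-1 site TGANTCA, the SRF site known as the CArG box, the EGR site GCGNGGGCG and the TATA motif TATAA. The core lies inside any full CREB site. Of the 10 members, 7 had a window, and Egr2 had 5, of which the one with the earliest start among those that hold both a CArG box and CREB cores is shown.
Egr2, chr10:67537619-67537918, plus strand: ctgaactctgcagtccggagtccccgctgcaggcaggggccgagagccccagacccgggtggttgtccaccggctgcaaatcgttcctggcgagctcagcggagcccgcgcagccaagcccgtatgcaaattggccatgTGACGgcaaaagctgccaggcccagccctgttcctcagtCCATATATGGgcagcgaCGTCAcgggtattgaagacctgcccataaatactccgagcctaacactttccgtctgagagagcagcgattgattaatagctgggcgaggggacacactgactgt
Fos, chr12:85473640-85473939, plus strand: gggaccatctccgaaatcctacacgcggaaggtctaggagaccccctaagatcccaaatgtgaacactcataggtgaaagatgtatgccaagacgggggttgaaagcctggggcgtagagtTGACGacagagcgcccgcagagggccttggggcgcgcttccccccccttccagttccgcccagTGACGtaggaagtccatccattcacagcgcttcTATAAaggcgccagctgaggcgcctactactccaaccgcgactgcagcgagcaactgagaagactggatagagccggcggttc
Junb, chr8:84978699-84978998, minus strand: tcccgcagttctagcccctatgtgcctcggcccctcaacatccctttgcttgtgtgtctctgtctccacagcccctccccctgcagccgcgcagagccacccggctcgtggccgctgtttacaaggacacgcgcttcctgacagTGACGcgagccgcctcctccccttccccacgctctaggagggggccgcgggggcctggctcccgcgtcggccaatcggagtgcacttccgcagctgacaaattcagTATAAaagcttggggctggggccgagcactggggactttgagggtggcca
Nr4a1, chr15:101266596-101266895, plus strand: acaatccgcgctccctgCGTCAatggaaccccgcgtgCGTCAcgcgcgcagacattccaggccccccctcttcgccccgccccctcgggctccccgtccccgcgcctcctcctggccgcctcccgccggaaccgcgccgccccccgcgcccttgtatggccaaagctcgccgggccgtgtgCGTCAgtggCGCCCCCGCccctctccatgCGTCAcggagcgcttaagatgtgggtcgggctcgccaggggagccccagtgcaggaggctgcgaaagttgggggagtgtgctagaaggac
The Egr2 window held the CArG box CCATATATGG with its first base 72 bases before the start, and CREB cores 111 and 55 bases before it. The Fos window had CREB cores 129 and 66 bases before the start and TATAA 33 bases before it. The Junb window had 1 CREB core, 106 bases before the start. The Nr4a1 window had 4 CREB cores, at 233, 213, 69 and 40 bases, and an EGR site at 60 bases. The Junb window also had TATAA with its first base at the start itself. Of the 4 Egr2 windows not printed, 2 held the same CArG box and CREB cores as the printed one, and 1 of these also TATAA. Another held the CArG box CCTTTTTTGG, and 1 held none of the letters. Of the other members' windows not printed, Fosb held a CREB core and an EGR site, Atf3 a CREB core, and Jun none of the letters searched. Among all 32851 RefSeq windows, 20.8% held TGACG, 1.79% TGACGTCA, 7.81% TGANTCA, 1.63% a CArG box, 5.55% GCGNGGGCG and 24.9% TATAA. These are matches of letters only. Sites outside a window are not seen, so a window without a match does not show that the gene lacks that site.

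The 15 libraries of the 4-week and run groups held 30552867 to 38090522 reads assigned to genes, and the 9 libraries of 18 months 23125930 to 31254175 reads. Dmd itself followed the labels in every library: at 4 weeks it stood at 155 to 172 CPM (counts relative to the library's total, scaled by TMM) in corrected, 36.1 to 41.8 in delEx44 and 204 to 240 in WT muscle, and its ranges did not overlap between genotypes at the later stages either. Macrophage markers, 12 genes such as Cd68 and C1qa, all rose in delEx44 against WT muscle at each stage, and none of them was at 0 in any group. A set of 10 neutrophil and marrow genes stood apart in WT replicate 3 of 4 weeks, where their CPM summed to 265.6, against 1.575 and 2.022 in replicates 1 and 2. In the run groups the same sum was 86.28 to 234.8.

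Levels of different genes were compared per kilobase of exon, with lengths from GENCODE vM21. These may differ from the annotation used for the counts, which is not given. On this scale Nr4a1 was the most abundant member and Jun the second in all 6 groups of 4 and 8 weeks. At 18 months the order depended on genotype. In delEx44 muscle Egr1 was first, at 68.21 ± 41.88 CPM per kb (SD, n = 3), above Nr4a1 at 37.9 ± 1.39, although the spread of Egr1 covers that gap. Junb and Jun followed at 29.5 ± 12.6 and 28.8 ± 4.48. In corrected muscle Jun (42.3 ± 7.08) and Nr4a1 (37.7 ± 11.3) led within each other's spread, and Egr1 was at 11.1 ± 8.13. In WT muscle Nr4a1 (51 ± 9.03) and Jun (46.5 ± 0.539) likewise led, with Egr1 at 5.42 ± 2.24. Egr2, Egr3 and Fosb were the 3 least abundant members in every group; in delEx44 muscle of 18 months Egr2 reached 11.9 ± 6.16 and Egr3 9.98 ± 2.93 CPM per kb.

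**Figure D1:**
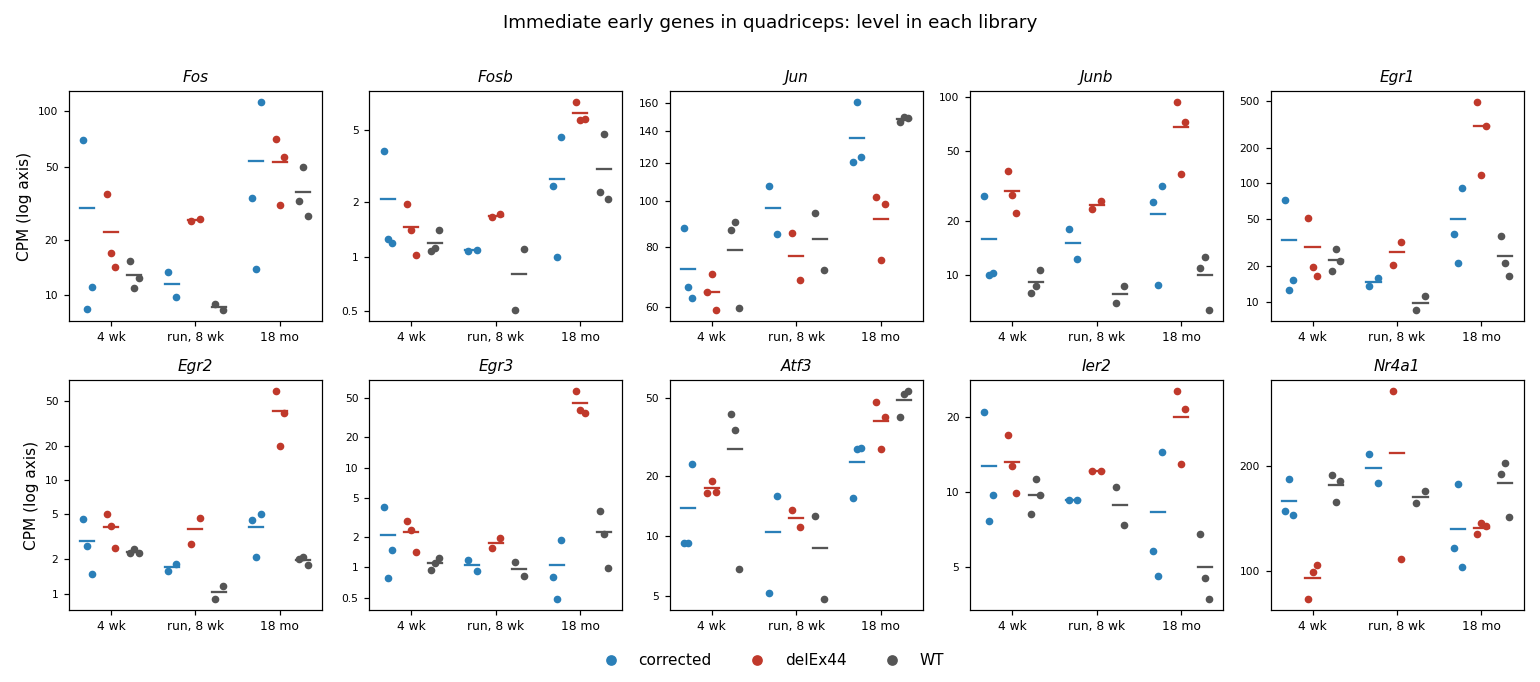
Level of each of the 10 immediate early genes in every library, in CPM on a log axis, by stage and genotype (corrected, delEx44 and WT from left to right within a stage). Points are libraries and bars are group means. In the 18-month panels all 3 delEx44 points of Egr1, Egr2, Egr3, Junb, Ier2 and Fosb lie above all WT points. Those of Jun and Nr4a1 lie below. Of these, Fosb and Nr4a1 did not pass the edgeR test. How many of all genes separate in this way was not counted.

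At 18 months the Egr genes, Junb and Ier2 were far higher in delEx44 than in WT quadriceps, and Jun was lower. Of the 10 members 5 rose and 1 fell at an adjusted p under 0.05 (edgeR quasi-likelihood test, Benjamini-Hochberg over all 14337 genes tested). Among all genes 28.8% rose and 23.8% fell, 52.7% in either direction, in this comparison. Counted in either direction, the members' share was near that of all genes. The median log2 fold change was 1.51 over the members and 0.048 over all genes.

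The early growth response genes moved most. Egr1, on chromosome 18, had 493, 117 and 308 CPM in the delEx44 libraries, against 35.6, 21 and 16.3 CPM in the WT libraries (log2 fold change 3.65 ± 0.76 SE, adjusted p = 0.0063). Egr2 had 62, 20.2 and 39.6 CPM in delEx44 and 2.03, 2.09 and 1.8 CPM in WT muscle (log2 fold change 4.35 ± 0.50 SE, adjusted p = 0.00036). Egr3, the spindle factor, had 58.9, 37.6 and 35.5 CPM in delEx44 and 3.69, 2.16 and 0.994 CPM in WT muscle (log2 fold change 4.23 ± 0.49 SE, adjusted p = 0.00035). For all 3 genes the delEx44 and WT libraries did not overlap, and delEx44 replicate 1 was the highest. The lowest delEx44 library of Egr3 still exceeded the highest WT library by more than the whole WT range.

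The AP-1 genes did not move together. Junb, whose protein pairs with Fos in AP-1, had 94, 36.8 and 72.7 CPM in delEx44, against 10.9, 12.6 and 6.35 CPM in WT muscle (log2 fold change 2.75 ± 0.56 SE, adjusted p = 0.0054). Jun had 102, 75.4 and 98.3 CPM in delEx44, against 146, 149 and 149 CPM in WT muscle (log2 fold change -0.69 ± 0.13 SE, adjusted p = 0.0019). The libraries of the genotypes did not overlap for either gene, in opposite directions, and the 3 WT values of Jun were nearly equal. Prdx2, the peroxiredoxin gene that overlaps the 3′ end of Junb, rose as well, with a log2 fold change of 0.28 (adjusted p = 0.004). In corrected against delEx44 muscle of this age its log2 fold change was -0.41 (adjusted p = 0.00076 in the same kind of test). Whether its reads have a part in the Junb values was not tested. Fos did not pass, with 70.7, 31 and 56.4 CPM in delEx44 and 32.5, 49.6 and 26.8 CPM in WT muscle, which overlap (log2 fold change 0.53 ± 0.73 SE, adjusted p = 0.57). Fosb was higher in every delEx44 library, 7.22, 5.72 and 5.82 CPM against 2.28, 4.78 and 2.08 CPM in WT, but did not pass either (log2 fold change 1.02 ± 0.49 SE, adjusted p = 0.11). Without the unnumbered WT library with 4.78 CPM it passed, at a log2 fold change of 1.51 (adjusted p = 0.047).

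Ier2 had 25.5, 12.9 and 21.4 CPM in delEx44, against 6.73, 4.48 and 3.69 CPM in WT muscle, with no overlap (log2 fold change 1.99 ± 0.49 SE, adjusted p = 0.011). Atf3 had 47.3, 27.5 and 40 CPM in delEx44 and 39.8, 52.4 and 54.2 CPM in WT muscle and did not pass (log2 fold change -0.35 ± 0.27 SE, adjusted p = 0.31). Nr4a1 had 128, 137 and 135 CPM in delEx44, below each of the WT values of 190.1, 204 and 143 CPM, and did not pass (log2 fold change -0.43 ± 0.20 SE, adjusted p = 0.11), although it did with DESeq2 (adjusted p = 0.028). In a fit of these 2 groups alone Fosb (adjusted p = 0.01) and Nr4a1 (0.003) passed. The 6 members that passed kept their call under all 10 alternatives tried. In this comparison the macrophage markers summed to 1200 to 1297 CPM in delEx44 and 318.6 to 435.2 in WT libraries (12 of 12 rose), fibroblast markers to 5545 to 6378 and 3349 to 3605 (10 of 10 rose), and fast fibre markers to 56480 to 69270 and 123800 to 133500 (7 of 10 fell). No macrophage or fibroblast marker was at 0 in either group. The part of these cell types in the early gene values was not tested.

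In corrected muscle of 18 months the Egr genes and Junb were lower than in delEx44 muscle and Jun was higher. Of the 10 members 4 fell and 1 rose, where 21.4% of all genes fell and 19.6% rose, 41% in either direction. The members' share in either direction was again near that of all genes. The median log2 fold change of the members was -1.23, against -0.028 over all genes. Both comparisons use the same delEx44 libraries, so their values are given side by side and not as independent results.

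Egr3 had 0.811, 0.48 and 1.89 CPM in corrected muscle, against 58.9, 37.6 and 35.5 CPM in delEx44 muscle (log2 fold change -5.34 ± 0.54 SE, adjusted p = 3e-04). Egr2 had 4.44, 2.12 and 5.07 CPM in corrected and 62, 20.2 and 39.6 CPM in delEx44 muscle (log2 fold change -3.38 ± 0.47 SE, adjusted p = 0.0012). Both genes had no overlap between the groups and passed under all 11 alternatives. Egr1 had 37.3, 21.3 and 90.9 CPM in corrected and 493, 117 and 308 CPM in delEx44 muscle (log2 fold change -2.61 ± 0.72 SE, adjusted p = 0.025), and Junb 25.8, 8.8 and 31.6 CPM in corrected and 94, 36.8 and 72.7 CPM in delEx44 muscle (log2 fold change -1.61 ± 0.53 SE, adjusted p = 0.045). Corrected replicate 3, the highest corrected library for both, lay closest to delEx44 replicate 2, the lowest delEx44 library. Both calls needed most of the libraries: without corrected replicate 1 or 2, or without delEx44 replicate 1 or 3, the adjusted p of Egr1 was 0.077, 0.082, 0.074 and 0.06, and that of Junb 0.089, 0.091, 0.14 and 0.11. Junb also missed the threshold with no filter on low counts (0.083) and in a fit of these 2 groups alone (0.064).

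Jun had 121, 161 and 123 CPM in corrected muscle, against 102, 75.4 and 98.3 CPM in delEx44 muscle (log2 fold change 0.56 ± 0.13 SE, adjusted p = 0.0079), with every corrected library above every delEx44 library. Fosb had 2.47, 1 and 4.6 CPM in corrected and 7.22, 5.72 and 5.82 CPM in delEx44 muscle, without overlap, and did not pass (log2 fold change -1.20 ± 0.49 SE, adjusted p = 0.083). Ier2 had 5.79, 4.56 and 14.4 CPM in corrected and 25.5, 12.9 and 21.4 CPM in delEx44 muscle, which overlap through corrected replicate 3, and did not pass (log2 fold change -1.26 ± 0.47 SE, adjusted p = 0.065). DESeq2 called Fosb (adjusted p = 0.022), Ier2 (0.038) and Atf3 (0.017) in this comparison. Without corrected replicate 3, Ier2 reached a log2 fold change of -1.91 (adjusted p = 0.0033) and Fosb -1.81 (adjusted p = 0.011). Fos had 33.6, 13.8 and 113 CPM in corrected muscle, the widest spread of any member in these groups, and a log2 fold change of 0.02 against delEx44 (adjusted p = 0.98); without corrected replicate 3 it was -1.12 (0.14). Atf3 had 15.5, 27.6 and 27.8 CPM in corrected and 47.3, 27.5 and 40 CPM in delEx44 muscle (log2 fold change -0.70 ± 0.27 SE, adjusted p = 0.078). It passed without delEx44 replicate 2, at -0.88 (adjusted p = 0.036). Nr4a1 had 116, 178 and 103 CPM in corrected and 128, 137 and 135 CPM in delEx44 muscle, with a log2 fold change of -0.01.

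Macrophage markers of these libraries summed to 887.5, 364.7 and 1349 CPM in corrected replicates 1, 2 and 3, against 1297, 1200 and 1244 CPM in delEx44 replicates 1, 2 and 3. None of the 12 passed between the groups in edgeR (median log2 fold change -0.62), 2 had an unadjusted p under 0.05 and DESeq2 called 2 lower; without corrected replicate 3, 9 were lower. Corrected replicate 3 was the highest and replicate 2 the lowest of its group in this sum, as they were for Fos, Fosb, Junb, Egr1, Egr2, Egr3 and Ier2. Fibroblast markers summed to 3181 to 4270 CPM in corrected and 5545 to 6378 CPM in delEx44 libraries, and 8 of 10 fell. Fast fibre markers summed to 116200 to 127400 CPM in corrected and 56480 to 69270 CPM in delEx44 libraries (9 of 10 rose and 1 fell), and adipocyte markers to 1840 to 3339 and 3104 to 3576 CPM (6 of 9 fell and 1 rose). The mean deviation of the 7 genes named here had the same order as the macrophage sum in delEx44 and WT libraries of this age too. In corrected muscle of 4 weeks it did not. Replicate 1 there lay highest, 1.2 log2 units from the group mean, at 789.7 CPM. Replicate 2 lay lowest, at -0.67, with the highest sum, 959.2 CPM. In delEx44 and WT muscle of 4 weeks the same library was highest in both. In each run group the library with the higher sum had the lower deviation. Whether the early genes follow the number of any of these cell types was not tested.

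Between corrected and WT muscle of 18 months no member passed in edgeR, where 4.76% of all genes did. Atf3 alone had an unadjusted p under 0.05, with 15.5, 27.6 and 27.8 CPM in corrected, against 39.8, 52.4 and 54.2 CPM in WT muscle, without overlap (log2 fold change -1.04 ± 0.28 SE, adjusted p = 0.071). It was the 1 member called by DESeq2 (adjusted p = 0.00054). Egr3 had 0.811, 0.48 and 1.89 CPM in corrected and 3.69, 2.16 and 0.994 CPM in WT muscle, which overlap (log2 fold change -1.11 ± 0.61 SE, adjusted p = 0.31), and Egr2 was slightly higher in each corrected library, 4.44, 2.12 and 5.07 CPM against 2.03, 2.09 and 1.8 CPM in WT (log2 fold change 0.97 ± 0.53 SE, adjusted p = 0.31). Nr4a1 passed without corrected replicate 2, at a log2 fold change of -0.71 (adjusted p = 0.0045). With the spread of Fos, Egr1 and Ier2 in the corrected group, these values do not show that corrected and WT muscle were alike.

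**Figure D2:**
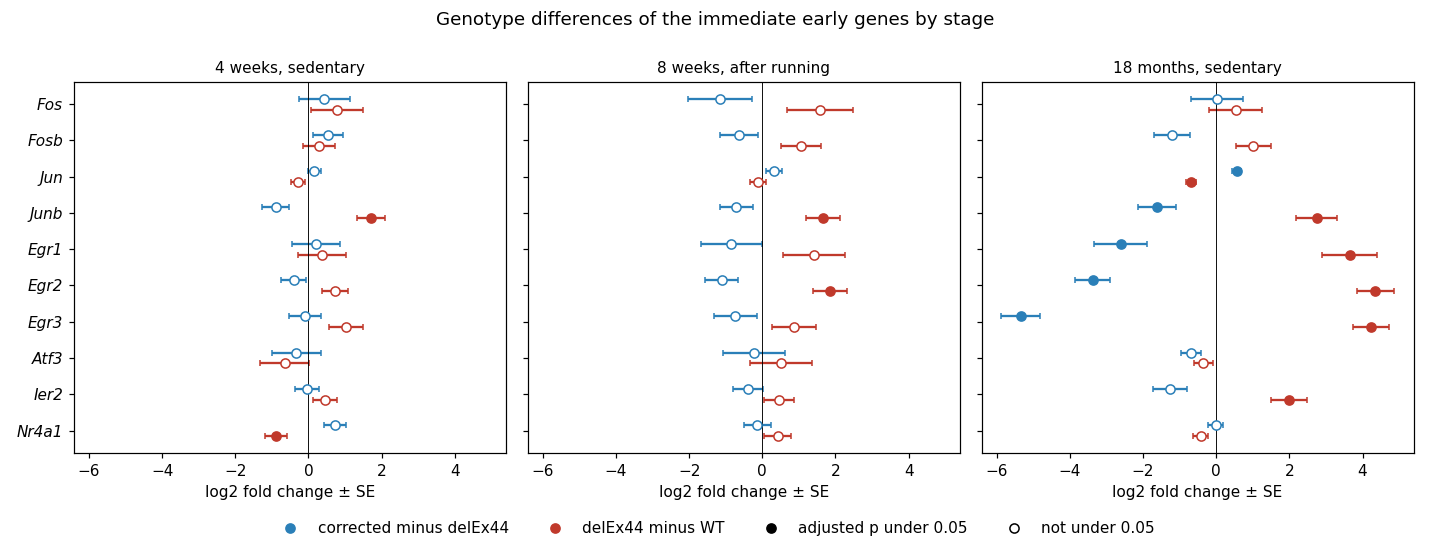
Log2 fold change with its standard error of each of the 10 genes for corrected minus delEx44 and delEx44 minus WT muscle, in 1 panel per stage. Filled points passed an adjusted p of 0.05 in the edgeR test; all points more than 3 log2 units from 0 belong to Egr1, Egr2 and Egr3 at 18 months.

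At 4 weeks Junb was higher and Nr4a1 lower in delEx44 than in WT muscle. Of the 10 members 1 rose and 1 fell, where 25.2% of all 15013 genes tested rose and 25% fell, 50.2% in either direction. Junb had 38.6, 28.3 and 22.2 CPM in delEx44, against 7.94, 8.74 and 10.7 CPM in WT muscle (log2 fold change 1.70 ± 0.38 SE, adjusted p = 0.0038). Nr4a1 had 83.2, 99.5 and 105 CPM in delEx44, against 189, 157 and 182 CPM in WT muscle (log2 fold change -0.88 ± 0.30 SE, adjusted p = 0.033). Neither gene overlapped between the groups. The Nr4a1 call was lost without WT replicate 1 or 3 (adjusted p = 0.083 and 0.072), without delEx44 replicate 1, 2 or 3 (0.11, 0.071 and 0.058) and with no filter on low counts (0.053). Jun passed when WT replicate 3, the library with marrow genes, was left out (log2 fold change -0.45, adjusted p = 0.043).

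In the fit of all 6 groups, none of the Egr genes passed between delEx44 and WT muscle at 4 weeks. Egr2 had 5.08, 3.95 and 2.51 CPM in delEx44 and 2.3, 2.46 and 2.29 CPM in WT muscle (log2 fold change 0.72 ± 0.35 SE, adjusted p = 0.11), and Egr3 2.93, 2.38 and 1.42 CPM in delEx44 and 0.945, 1.12 and 1.25 CPM in WT muscle (log2 fold change 1.02 ± 0.47 SE, adjusted p = 0.09). Every delEx44 library was above every WT library for both genes. Without delEx44 replicate 3, Egr2 passed at 0.96 (adjusted p = 0.044), and in a fit of these 2 groups alone both Egr2 (0.037) and Egr3 (0.017) passed; DESeq2 called neither. Egr1 had 51.1, 19.8 and 16.6 CPM in delEx44 and 18, 27.9 and 21.9 CPM in WT muscle, and Fos 35.4, 16.9 and 14.2 CPM in delEx44 and 15.4, 10.9 and 12.5 CPM in WT muscle; both overlap, with delEx44 replicate 1 above the other libraries. Atf3 differed as much among the WT libraries, 41.4, 34.3 and 6.81 CPM, as between genotypes; it stood at 16.6, 19.1 and 16.8 CPM in delEx44 muscle.

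No member passed between corrected and delEx44 muscle of 4 weeks in edgeR, where 46.3% of all genes did; 2 had an unadjusted p under 0.05, and DESeq2 called the same 2, Junb and Nr4a1. Junb had 27.7, 10 and 10.3 CPM in corrected, against 38.6, 28.3 and 22.2 CPM in delEx44 muscle (log2 fold change -0.89 ± 0.37 SE, adjusted p = 0.071). Nr4a1 had 148, 184 and 145 CPM in corrected, against 83.2, 99.5 and 105 CPM in delEx44 muscle, with no overlap (log2 fold change 0.73 ± 0.30 SE, adjusted p = 0.071). This comparison rests on corrected replicate 1, where Fos stood at 70 CPM, against 8.42 and 11 CPM in corrected replicates 2 and 3 and 35.4, 16.9 and 14.2 CPM in delEx44 muscle. Without it 5 members passed, all lower in corrected muscle: Junb at -1.55 (adjusted p = 0.00061), Fos at -1.19 (0.024), Egr3 at -0.99 (0.034), Egr2 at -0.89 (0.044) and Ier2 at -0.61 (0.047). Fos thereby turned its direction, being 0.43 with all libraries. Egr1 and Fosb, which passed neither way, turned as well, to -1.07 (adjusted p = 0.094) and -0.26 (0.54), and were 0.20 and 0.52 with all libraries. Between corrected and WT muscle no member passed in edgeR or DESeq2 or had an unadjusted p under 0.05, and 0% of all genes passed in edgeR. Macrophage markers summed to 690.9 to 959.2 CPM in corrected, 2065 to 3101 in delEx44 and 438.2 to 489.5 in WT libraries of this age, and none was at 0; all 12 rose in delEx44 against WT and fell in corrected against delEx44 muscle. Fast fibre markers summed to 176400 to 201400 CPM in corrected, 97870 to 125300 in delEx44 and 203500 to 221500 in WT libraries, where 9 of 10 fell in delEx44 against WT muscle and 10 of 10 rose in corrected against delEx44 muscle. Their part in the Junb and Nr4a1 values was not tested.

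After downhill running, 2 members, Junb and Egr2, rose in delEx44 against WT muscle and none fell, where 14.9% of all genes rose and 14.2% fell, 29.1% in either direction. Junb had 23.6 and 26.1 CPM in the 2 delEx44 libraries, against 6.94 and 8.72 CPM in the 2 WT libraries (log2 fold change 1.67 ± 0.47 SE, adjusted p = 0.024). Egr2 had 2.74 and 4.65 CPM in delEx44, against 0.89 and 1.16 CPM in WT muscle (log2 fold change 1.85 ± 0.47 SE, adjusted p = 0.011). Fos had 25.4 and 26 CPM in delEx44, against 8.9 and 8.27 CPM in WT muscle, and did not pass in the fit that pools the spread of all 6 groups (log2 fold change 1.58 ± 0.90 SE, adjusted p = 0.22). In a fit of these 4 libraries alone, Fos did pass (adjusted p = 0.0015), as did Egr1 (0.034), which had 20.5 and 32.1 CPM in delEx44 and 8.42 and 11.1 CPM in WT muscle. Leaving out a library leaves 1 in its group, assumed to vary like the others: Junb then missed the threshold without WT replicate 1 or 2 or delEx44 replicate 1 or 2 (adjusted p = 0.12, 0.085, 0.063 and 0.083), and Egr2 without WT replicate 1 or 2 or delEx44 replicate 2 (0.076, 0.052 and 0.083).

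For 7 members, Fos, Fosb, Junb, Egr1, Egr2, Egr3 and Ier2, both delEx44 libraries of the run groups were above both corrected and both WT libraries. How many of all genes show this order was not counted, so it is not read as particular to these members. The 7 also deviate together within groups, as described below. For Ier2 the margin was thin, 12.12 and 12.13 CPM in delEx44 against up to 10.41 CPM in WT muscle. No member passed between corrected and delEx44 muscle in edgeR, where 23.2% of all genes did, or in DESeq2. Fos did in a fit of these 4 libraries alone (log2 fold change -1.16, adjusted p = 0.018). Egr2 alone had an unadjusted p under 0.05, with 1.6 and 1.82 CPM in corrected and 2.74 and 4.65 CPM in delEx44 muscle (log2 fold change -1.11 ± 0.44 SE, adjusted p = 0.09). Between corrected and WT muscle no member passed in edgeR or DESeq2 or had an unadjusted p under 0.05; 0.02% of all genes passed in edgeR. Nr4a1 had 217 and 179 CPM in corrected, 328 and 109 CPM in delEx44 and 157 and 169.8 CPM in WT muscle. The delEx44 libraries lie on both sides of the others, and the direction follows the one that is kept. Without delEx44 replicate 1 the log2 fold change of delEx44 against WT was -0.59 (adjusted p = 0.038), and without replicate 2 it was 1.00 (0.0024), against 0.42 with both. Corrected against delEx44 gave 0.87 (0.0094) without delEx44 replicate 1, -0.73 (0.019) without replicate 2 and -0.14 with both. Macrophage markers summed to 377.2 to 524.2 CPM in corrected, 1332 to 1373 in delEx44 and 348.9 to 356.4 in WT run libraries, all 12 rose in delEx44 against WT muscle, and their part was not tested.

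Between the run and the 4-week groups few of these genes passed. In delEx44 muscle 1 member, Nr4a1, rose and none fell, where 16.4% of all genes rose and 19.3% fell, 35.7% in either direction. Nr4a1 had 328 and 109 CPM in run and 83.2, 99.5 and 105 CPM in 4-week delEx44 muscle (log2 fold change 1.19 ± 0.33 SE, adjusted p = 0.018). It rested on run replicate 1: without that library the log2 fold change was 0.18 (adjusted p = 0.47), without 4-week delEx44 replicate 1 it was 1.10 (0.063), and a fit of these 2 groups alone gave an adjusted p of 0.13. In that fit Atf3 passed, lower after running (-0.47, adjusted p = 0.025), with 13.6 and 11.2 CPM in run and 16.6, 19.1 and 16.8 CPM in 4-week delEx44 muscle; with all groups it did not (adjusted p = 0.65). In corrected muscle no member passed in edgeR or DESeq2 or had an unadjusted p under 0.05, where 25.8% of all genes passed in edgeR. Egr3 passed without 4-week corrected replicate 2 (log2 fold change -1.38, adjusted p = 0.047) and Egr2 without replicate 3 (-1.08, 0.046). In WT muscle no member passed in edgeR, where 27.6% of all genes did; Egr2 alone had an unadjusted p under 0.05 and was called by DESeq2 (adjusted p = 0.023), with 0.89 and 1.16 CPM in run and 2.3, 2.46 and 2.29 CPM in 4-week WT muscle, without overlap (log2 fold change -1.19 ± 0.45 SE, adjusted p = 0.065). In a fit of the 2 WT groups alone Fos (adjusted p = 0.033), Egr1 (0.016) and Egr2 (0.012) passed, lower after running. Atf3 passed in WT muscle without 4-week replicate 3 (-2.12, adjusted p = 0.04).

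The change of a genotype difference from stage to stage was tested as an interaction. With running, the change of the difference between delEx44 and WT muscle passed for no member in edgeR (0.879% of all genes did) or DESeq2; Nr4a1 alone had an unadjusted p under 0.05, and it passed without run delEx44 replicate 2 (1.88, adjusted p = 0.0069). That of the difference between corrected and delEx44 muscle passed for no member either, in edgeR (1.42% of all genes), in DESeq2 or at an unadjusted p under 0.05, except that Nr4a1 passed without the same library (-1.46, adjusted p = 0.031). From 4 weeks to 18 months, the difference between delEx44 and WT muscle changed upward for 2 members and downward for none, where 7.02% of all 14937 genes changed upward and 3.91% downward, 10.9% in all. Egr2 differed by 4.35 at 18 months and 0.72 at 4 weeks on the log2 scale (change 3.61 ± 0.66 SE, adjusted p = 0.0033). Egr3 differed by 4.23 and 1.02 (change 3.19 ± 0.81 SE, adjusted p = 0.023). The Egr3 call was lost without 4-week WT replicate 3 (0.066), 4-week delEx44 replicate 3 (0.05), 18-month delEx44 replicate 1 (0.051) or 1 of the unnumbered 18-month WT libraries (0.053). Egr1 passed in DESeq2 (adjusted p = 0.026) and missed the threshold in edgeR (change 3.26 ± 1.09 SE, adjusted p = 0.077).

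The difference between corrected and delEx44 muscle also changed for Egr2 and Egr3. Both were more negative at 18 months than at 4 weeks, where 8.12% of all genes changed that way and 7.75% the other way, 15.9% in all. Egr2 changed by -2.95 ± 0.62 (SE, adjusted p = 0.0069) and Egr3 by -5.22 ± 0.80 (SE, adjusted p = 0.0012), and both passed under all 15 alternatives. For Egr1 the change was -2.78 ± 1.07 (SE, adjusted p = 0.096). Without 18-month corrected replicate 3, Fosb (-2.34, adjusted p = 0.04) and Ier2 (-1.87, 0.049) passed as well, and without replicate 2 Nr4a1 did (-0.99, 0.002), which DESeq2 also called with all libraries (adjusted p = 0.035). Age goes together with the vector dose and with the table in these changes, which cannot be told apart; the table's scaling drops out of an interaction, but a response that differs between the library sets does not.

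Within groups, several members deviated in the same libraries. A set of 7 genes, Fos, Fosb, Junb, Egr1, Egr2, Egr3 and Ier2, was drawn together after their values were seen, and is described without a test. Over all 24 libraries, as deviations from the group mean of log2 CPM, their 21 pairs had Pearson correlations of 0.59 to 0.91. Against the same 7 genes, Jun had correlations of -0.08 to 0.28, Atf3 of -0.27 to 0.07 and Nr4a1 of -0.45 to -0.26. In 5 of the 9 groups all 7 genes were highest in 1 and the same library: 4-week corrected replicate 1, 4-week delEx44 replicate 1, run delEx44 replicate 2, 18-month corrected replicate 3 and 18-month delEx44 replicate 1. Their mean deviation was 1.2 log2 units in 4-week corrected replicate 1, 0.56 in 4-week delEx44 replicate 1 and 0.55 in 18-month delEx44 replicate 1. In run delEx44 replicate 2 it was only 0.14. That group has 2 libraries, and Ier2 was nearly equal in them, at 12.12 and 12.13 CPM. The 18-month corrected group was spread to both sides, with 0.98 in replicate 3 and -0.99 in replicate 2.

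**Figure D3:**
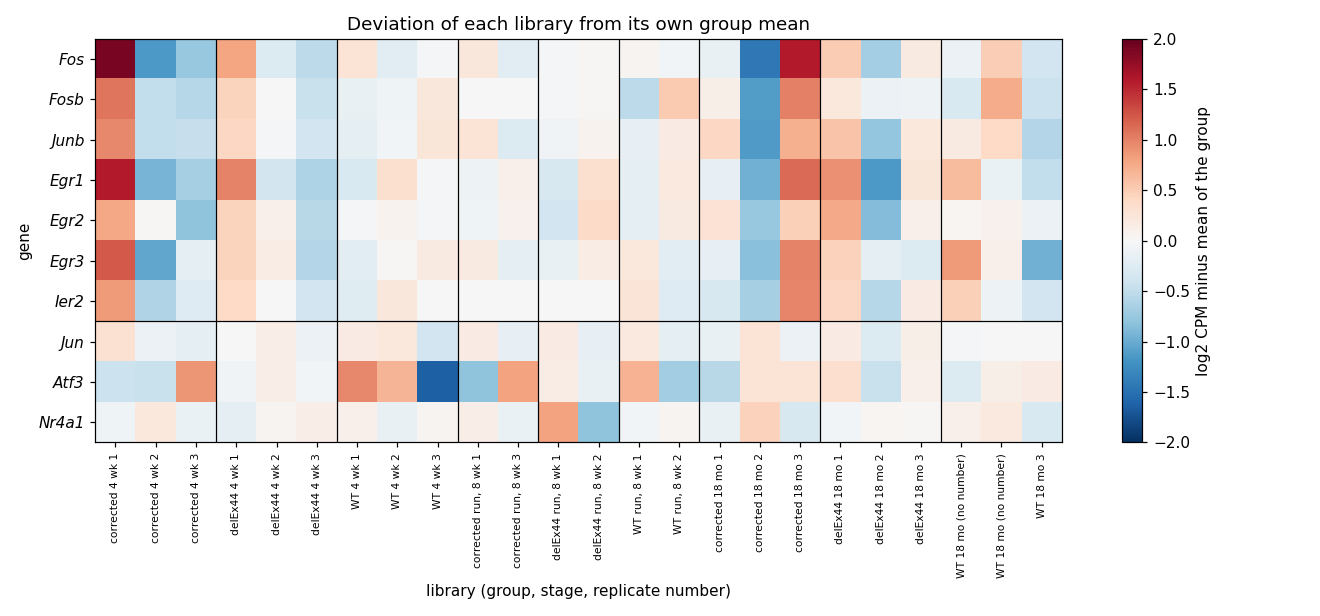
Deviation of each of the 10 genes from its group mean of log2 CPM in each of the 24 libraries. Red is above and blue below the group mean; the rows of Fos, Fosb, Junb, Egr1, Egr2, Egr3 and Ier2 share their colour in 4-week corrected replicate 1 and in 18-month corrected replicates 2 and 3, where Nr4a1 has the opposite colour.

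The highest corrected library of Fos exceeded the lowest 8.31 times at 4 weeks and 8.14 times at 18 months. The biological coefficient of variation that edgeR estimated for Fos was 0.572 in the 4-week and run libraries and 0.595 at 18 months, and for Egr1 0.539 and 0.562, against medians over all genes of 0.104 and 0.11. Of all genes 98.5% varied less than Fos in the first table and 99.2% in the second. Jun was the steadiest member at 0.159 and 0.124. No source used here gives the time from dissection to freezing of each library.

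The genes most like the members in this within-group pattern, by the mean Pearson correlation of their deviations with those of the 10 members over 24 libraries, were Zfp36l1 (0.55), Ttc5 (0.55), Ptgs2 (0.54), Psmc3ip (0.54) and Cxcl1 (0.53), out of 14129 genes ranked. Their correlations with single members ran from -0.33 to 0.85 for Zfp36l1, -0.24 to 0.87 for Ttc5 and -0.43 to 0.91 for Ptgs2. They ran from -0.33 to 0.88 for Psmc3ip and -0.4 to 0.91 for Cxcl1, so no gene was like all 10 members. All libraries share 1 protocol, and the ranking was not tested. Zfp36l1 encodes an RNA-binding protein that shortens the life of AU-rich messages, Ptgs2 the inducible cyclooxygenase and Cxcl1 a neutrophil chemokine. Ptgs2 rose in delEx44 against WT muscle at 18 months (log2 fold change 3.62 ± 0.47 SE, adjusted p = 0.00035) and was lower in corrected than in delEx44 muscle (log2 fold change -3.05 ± 0.45 SE, adjusted p = 0.00095), while at 4 weeks its log2 fold change between delEx44 and WT was 0.05 (adjusted p = 0.93).

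Related genes of the same response were counted from lists. At 18 months 6 of the 7 other AP-1 genes rose in delEx44 against WT muscle and none fell, where 28.8% of all genes rose and 23.8% fell. The median log2 fold change of the 7 was 1.45, and leaving out 1 library left 4 or 5 that rose. Fosl2, a Fos relative, had 181, 119 and 139 CPM in delEx44, against 37, 45.2 and 30 CPM in WT muscle (log2 fold change 1.96 ± 0.22 SE, adjusted p = 0.00022). Jdp2, which represses AP-1, rose by 1.30 ± 0.13 SE (adjusted p = 3.5e-05) and Jund by 0.58 ± 0.11 SE (adjusted p = 0.0019) on the log2 scale. Fosl1, another Fos relative, had 1.98, 3.39 and 1.4 CPM in delEx44 muscle, where the WT libraries held no more than 3 reads each, so that no fold change is given. In corrected against delEx44 muscle 4 of the 7 fell, where 21.4% of all genes fell. Among them were Jdp2, Jund and Fosl2, which had 45.9, 31.4 and 32.6 CPM in corrected muscle (log2 fold change -1.99 ± 0.22 SE, adjusted p = 0.00033). Fosl1 had 0.888, 0.48 and 0.428 CPM in corrected muscle, between the other genotypes, and passed against delEx44 (log2 fold change -1.91 ± 0.39 SE, adjusted p = 0.0033).

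Of 4 tested genes of the list of other Egr and Nr4a genes and Nab corepressors, 3 rose in delEx44 against WT muscle of 18 months, where 28.8% of all genes rose. In corrected against delEx44 muscle 3 of the 4 fell, where 21.4% of all genes fell. Nab2, a corepressor of the Egr proteins and itself a known Egr target, had 33.7, 34.6 and 27.8 CPM in delEx44, against 7.67, 7.87 and 5.21 CPM in WT muscle (log2 fold change 2.20 ± 0.16 SE, adjusted p = 9.6e-06). In corrected muscle it had 8.96, 6.88 and 7.49 CPM, below every delEx44 library (log2 fold change -2.04 ± 0.16 SE, adjusted p = 2.3e-05). Nr4a2, a relative of Nr4a1, had 3.32, 2.64 and 2.25 CPM in corrected, 14.4, 10.4 and 11.4 CPM in delEx44 and 4.12, 9.13 and 2.42 CPM in WT muscle; it rose in delEx44 against WT (log2 fold change 1.19 ± 0.41 SE, adjusted p = 0.039), where Nr4a1 did not pass; the Nr4a2 call held under 3 of 10 alternatives, its adjusted p reaching 0.12. The difference of Nab2 between delEx44 and WT muscle was larger at 18 months than at 4 weeks (change 1.31 ± 0.24 SE, adjusted p = 0.0024).

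Of 35 other early response genes tested, 25 rose and none fell in delEx44 against WT muscle at 18 months, with a median log2 fold change of 0.93. Among all genes 28.8% rose and 23.8% fell. In corrected against delEx44 muscle 23 fell and 1, Gadd45b, rose, with a median of -0.79, where 21.4% of all genes fell and 19.6% rose. Between corrected and WT muscle none of the 35 passed in edgeR, where 4.76% of all genes did. There 14 had an unadjusted p under 0.05, and DESeq2 called 5 higher and 1 lower. Errfi1, a feedback inhibitor of the EGF receptor, had 688, 461 and 462 CPM in delEx44, against 75.1, 75.4 and 75.5 CPM in WT muscle (log2 fold change 2.83 ± 0.17 SE, adjusted p = 5.1e-06). Myc, a growth-promoting factor, had 52.3, 31 and 40.2 CPM in delEx44, against 7.49, 7.77 and 7.48 CPM in WT muscle (log2 fold change 2.44 ± 0.19 SE, adjusted p = 1.9e-05). The corrected libraries had 80.1 to 103 CPM of Errfi1 and 13.1, 9.92 and 10.1 CPM of Myc, below every delEx44 library. At 4 weeks 8 of the 35 rose in delEx44 against WT muscle and none fell (median 0.05), no larger a share than the 25.2% of all genes that rose; the log2 fold change was 0.95 for Nfkbiz and 0.77 for Btg1. After running 9 rose and 1 fell, where 14.9% of all genes rose and 14.2% fell. The delEx44 against WT difference changed upward with age in 12 of 36 and downward in none, where 7.02% of all genes changed upward and 3.91% downward. Among the 12 were Arc (change 3.22 ± 0.39 SE, adjusted p = 9.6e-05) and Socs3 (change 3.18 ± 0.46 SE, adjusted p = 0.00078).

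Feedback inhibitors of the pathway moved both ways: 9 of 14 rose and 3 fell in delEx44 against WT muscle at 18 months. Among all genes 28.8% rose and 23.8% fell. Among the dual-specificity phosphatases, which switch off MAP kinases, Dusp4 had 14.6, 11.7 and 11.5 CPM in delEx44 and 2.75, 2.96 and 2.75 CPM in WT muscle (log2 fold change 2.16 ± 0.20 SE, adjusted p = 2.6e-05), and Dusp5 rose too (log2 fold change 2.75 ± 0.29 SE, adjusted p = 5.7e-05). In corrected against delEx44 muscle 7 of the 14 fell and 2 rose, where 21.4% of all genes fell and 19.6% rose. Dusp4 (-1.88 ± 0.19 SE, adjusted p = 7.7e-05), Dusp5 and Spry4 were among those that fell, and Nfkbia, the NF-kB inhibitor, among those that rose. Of 17 upstream kinases and SRF or CREB factors, 2 rose and 6 fell in delEx44 against WT muscle, and 52.7% of all genes passed, so the list's share is near that of all genes. Elk1, an SRF partner, rose (log2 fold change 0.46 ± 0.085 SE, adjusted p = 0.0014), and Mapk14, the p38 kinase, fell (log2 fold change -0.74 ± 0.06 SE, adjusted p = 1.4e-05). In corrected against delEx44 muscle 6 of the 17 rose and 2 fell, where 19.6% of all genes rose and 21.4% fell, 41% in either direction. Counted in either direction, the list's share was again near that of all genes. Mapk14 was now higher (0.77) and Elk1 lower (-0.55).

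**Figure D4:**
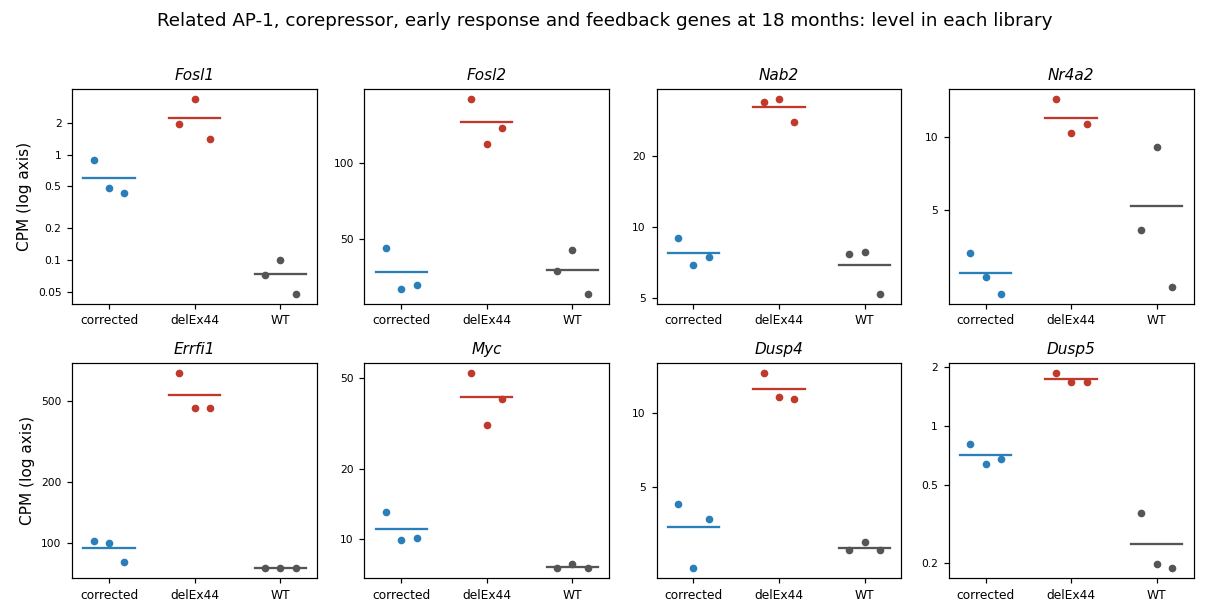
Level of Fosl1, Fosl2, Nab2, Nr4a2, Errfi1, Myc, Dusp4 and Dusp5 in each 18-month library, in CPM on a log axis. Points are libraries and bars group means; for all 8 genes the 3 delEx44 libraries lie above all corrected and WT libraries.

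Heat shock genes, which many stresses induce, rose in 3 and fell in 1 of 10 in delEx44 against WT muscle at 18 months, a smaller share than the 52.7% of all genes that passed, and 5 of 10 fell in corrected against delEx44 muscle, where 21.4% of all genes fell. Dnajb1, a chaperone gene, was lower in corrected than in delEx44 muscle (log2 fold change -1.87 ± 0.27 SE, adjusted p = 0.0011). Of 6 muscle spindle genes tested, 2 rose and 1 fell in delEx44 against WT muscle, a share near the 52.7% of all genes that passed. Erbb2, the receptor through which neuregulin induces Egr3 in spindles, rose (log2 fold change 0.91 ± 0.15 SE, adjusted p = 0.00081). Myh6, the alpha cardiac myosin that intrafusal fibres also carry, fell (log2 fold change -1.72 ± 0.34 SE, adjusted p = 0.0021). Endothelial markers, whose cells also express early genes, summed to 685.8 to 818 CPM in corrected, 648 to 668.3 in delEx44 and 702.3 to 781.8 in WT libraries of 18 months, where 1 of 10 fell in delEx44 against WT muscle.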

How the data were processed

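RNA of 24 quadriceps libraries was analysed from count tables that the authors deposited: whole-number counts of reads per gene symbol, not normalised, with 5 records per table that name no gene. Those records held 27.4 to 34.2% of all records in the 4-week and run libraries and 42.2 to 48.3% at 18 months, and were left out of library sizes and tests. Per the submitters' processing notes, STAR 2.7.2b and Bowtie2 2.3.4.3, HTSeq, SAMtools 1.9, edgeR and Trim Galore were used on mm10. The tool that made the counts, its annotation and its strand setting were not given in these sources.

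From the counts, 1 mean per group was fitted with edgeR 4.0.16 in R 4.3.3 (quasi-likelihood F-test, robust, TMM scaling, filterByExpr) over the 15 libraries of 4 weeks and running (15013 genes), the 9 of 18 months (14337 genes), and the 18 sedentary ones for changes with age (14937 genes). All 10 members passed the filter in each fit. P-values are two-sided and were adjusted by Benjamini-Hochberg over all genes of a fit, with a threshold of 0.05, in 16 comparisons. CPM use TMM factors of the library's own table, and log2 CPM a prior count of 2. Fold changes put the first-named group on top, and a standard error is the log2 fold change divided by the root of F. Alternatives were RLE scaling, no filter, DESeq2 1.42.0, fits of the compared groups alone, a replicate block and leaving out each library. The method was tested on simulated data.

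Replicate numbers of the 4-week groups follow deposition order, and 2 of the 18-month WT libraries carry no number because their columns name only the group. None of the 21 within-group pairs of libraries agreed within sampling noise (chi-square per degree of freedom 9.06 to 105). All 10 members are named. From each pathway list, up to 4 genes with the smallest p among those that passed in a comparison were eligible to be named, plus the 5 genes most like the members; Prdx2 and Gadd45b were named after their values were seen. Of 215 listed genes, 208 matched by symbol and 7 by an older symbol. The members and lists were chosen with earlier results of these data known. Promoter windows are from RefSeq GRCm38.p6. Egr1, Egr3 and Ier2 have no window shown.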

Additional observations from a re-analysis of the deposited data

Results flagged for a closer look

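Genotype differences of 2 members differed between ages, by the interaction test (edgeR quasi-likelihood, adjusted over all genes). For Egr2, the log2 fold change of delEx44 against WT was larger at 18 months than at 4 weeks by 3.61 (adjusted p = 0.0033), and that of corrected against delEx44 lower by 2.95, a difference of -2.95 (adjusted p = 0.0069). For Egr3, the same differences were 3.19 (adjusted p = 0.023) and -5.22 (adjusted p = 0.0012). The comparisons share the delEx44 libraries. Of these 4 values, only that of Egr3 between delEx44 and WT muscle missed the threshold when 1 library was left out, in 4 of the fits. Groups of 2 or 3 libraries were too small for a test of single outlying libraries.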

How the results depend on the processing

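RLE scaling changed no count of called members, and moved the median of all genes by no more than 0.046 in size. Without the filter on low counts 1 member passed between delEx44 and WT muscle at 4 weeks, where 2 did with it. DESeq2 called 2 members between corrected and delEx44 muscle at 4 weeks, 8 at 18 months (5 in edgeR), 7 between delEx44 and WT muscle at 18 months (6 in edgeR), 1 between corrected and WT muscle at 18 months, 1 between run and 4-week WT muscle, and 3 for each change with age (2 in edgeR). Fits of the compared groups alone called 4 members for delEx44 against WT at 4 weeks, 4 after running and 8 at 18 months, for corrected against delEx44 1 at 4 weeks, 1 after running and 4 at 18 months, and 3 for run against 4-week WT muscle. The cause of these differences was not tested.

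Leaving out each library in turn, the number of called members for delEx44 against WT ranged over 1 to 2 at 4 weeks, 0 to 2 after running and 6 to 7 at 18 months. For corrected against delEx44 it was 0 to 5, 0 to 1 and 3 to 7, and for corrected against WT 0 to 0, 0 to 0 and 0 to 1 at these stages. Run against 4 weeks gave 0 to 1 in delEx44, 0 to 1 in corrected and 0 to 1 in WT muscle. The changes with running gave 0 to 1 for both differences, and those with age 1 to 2 for delEx44 against WT and 2 to 4 for corrected against delEx44. Among values that passed with or without the library, signs turned for Fos in corrected against delEx44 at 4 weeks, which ranged from -1.19 without corrected replicate 1 to 0.94 without delEx44 replicate 1, and for Nr4a1 after running, where delEx44 against WT gave -0.59 and 1.00 and corrected against delEx44 gave 0.87 and -0.73 without delEx44 replicate 1 and 2 in turn. Signs also turned for values that passed in no such fit, among them Egr1 at 4 weeks for corrected against delEx44 (-1.07 to 0.88) and for delEx44 against WT (-0.30 to 0.66), and Fos at 18 months for corrected against delEx44 (-1.12 to 0.48). For related genes named or eligible in 4 of the comparisons, there were 98 results, each of 1 gene in 1 comparison. Of these results 77 kept call and direction throughout, and a gene can stand in more than 1 of them. The count of all genes between corrected and WT muscle at 18 months was 683, against 1638 with DESeq2 and 16 in the fit of the groups alone.

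The 18-month corrected and delEx44 libraries share numbers 1 to 3, but same-numbered libraries did not deviate together over all genes (correlations -0.03, 0.03 and -0.05). Such a correlation cannot show a pairing that touches few genes, so whether the numbers pair the libraries is not known. With the number as a replicate block in an edgeR fit of these 6 libraries, 5 members and 4397 genes passed. The fit of the same libraries without the block called 5353 genes, and the fit of all 9 libraries 5880. With the block Jun missed the threshold (adjusted p = 0.1) and Ier2 passed (0.048). With 12 to 78 reads in their lowest 18-month libraries, Egr3, Fosb, Egr2 and Ier2 carry the most counting error.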
